A study of Homo sapiens with 24 samples.

Results

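The collagen genes, which encode the alpha chains of the collagens, were the 44 genes of 58266 gene symbols whose name matched COL, a number, A and a number. Of these, 24 were expressed, meaning an FPKM of at least 1 in 3 or more libraries, and 20 were not. FPKM is a transcript level that the authors scaled to transcript length and library depth, so levels may be compared between genes. The cells were HEK293A, an established line from human embryonic kidney transformed with adenoviral DNA, grown on fibronectin-coated hydrogels in DMEM with serum. Poly(A) RNA was sequenced in 24 libraries, 3 in each of 8 groups, which the design text calls biological replicates. The groups were RAP2A/B/C-tKO (RAP2 tKO), LATS1/2-dKO (LATS dKO), YAP/TAZ-dKO and wild type (WT) cells, each on hydrogels of 40 and of 1 kPa. No other treatment was given. The labels name neither the method of knockout nor the number of clones per genotype, so genotype and clone cannot be told apart. The question was which collagen genes differ with the stiffness of the matrix and with the loss of RAP2, of LATS1/2 or of YAP/TAZ.

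Collagen chains wind in threes into a triple helix and are secreted into the extracellular matrix or, for a few, held in the plasma membrane. Fibrillar collagens build the fibres of connective tissue, basement membrane collagens the sheet under epithelia, and beaded filament collagens thin filaments beside it. FACIT collagens sit on the surface of fibres made by other collagens. The small GTPases of the RAP2 family are known to relay low matrix stiffness to the Hippo pathway, whose LATS1 and LATS2 kinases hold back YAP and TAZ (gene WWTR1). These coactivators work with TEAD factors, whose binding site has the core GGAATG.

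Promoter sequence is shown for the collagen genes where it helps to read the results: COL12A1, the expressed collagen gene with a TEAD core in this window; COL23A1, the one whose level in YAP/TAZ dKO cells had the largest ratio to WT; and the head-to-head pairs COL4A1 with COL4A2 and COL4A5 with COL4A6, each of which shares 1 stretch between its starts. Each window is the 250 bases before an annotated start, from RefSeq on GRCh38, printed 5′ to 3′ on the strand of the gene. Capitals mark the TEAD core in COL12A1, the GC box GGGCGG or its reverse CCGCCC in COL23A1, and the CCAAT box or its reverse ATTGG in COL4A2 and COL4A6. COL12A1 lies at chr6:75206054-75206303 (minus strand), COL23A1 at chr5:178590394-178590643 (minus), COL4A2 at chr13:110307034-110307283 (plus) and COL4A6 at chrX:108439459-108439708 (minus). The window of another COL4A6 start, at chrX:108438423-108438672 (minus), held 0 CCAAT boxes and is not printed.
COL12A1: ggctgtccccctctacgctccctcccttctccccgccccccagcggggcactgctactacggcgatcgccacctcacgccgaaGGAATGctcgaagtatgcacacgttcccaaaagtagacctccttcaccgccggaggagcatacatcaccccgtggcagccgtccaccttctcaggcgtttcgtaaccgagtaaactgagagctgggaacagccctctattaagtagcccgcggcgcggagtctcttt
COL23A1: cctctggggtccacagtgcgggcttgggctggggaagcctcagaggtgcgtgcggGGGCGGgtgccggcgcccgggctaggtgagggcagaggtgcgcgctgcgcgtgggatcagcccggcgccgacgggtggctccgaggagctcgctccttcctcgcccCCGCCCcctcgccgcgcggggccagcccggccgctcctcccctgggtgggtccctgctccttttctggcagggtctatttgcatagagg
COL4A2: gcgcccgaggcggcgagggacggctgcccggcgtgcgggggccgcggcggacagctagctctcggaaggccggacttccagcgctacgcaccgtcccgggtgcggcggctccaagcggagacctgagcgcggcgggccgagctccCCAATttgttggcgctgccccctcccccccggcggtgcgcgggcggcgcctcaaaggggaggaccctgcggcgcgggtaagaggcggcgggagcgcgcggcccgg
COL4A6: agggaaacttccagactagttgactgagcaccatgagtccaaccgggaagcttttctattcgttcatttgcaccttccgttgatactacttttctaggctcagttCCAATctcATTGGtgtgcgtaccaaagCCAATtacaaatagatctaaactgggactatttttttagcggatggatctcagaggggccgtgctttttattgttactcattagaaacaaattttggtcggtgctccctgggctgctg

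The table of promoters held 32 of the 44 collagen genes and 18 of the 24 expressed ones, some with several starts, which gave 44 and 22 windows. COL14A1, COL1A1, COL3A1, COL5A2, COL6A1 and COL9A3 have no window there. The TEAD core GGAATG, searched on both strands, stood in 3 of the 44 collagen windows (COL10A1, COL11A2 and COL12A1) and in 11.9% of all 35116 windows. The AP-1 site TGANTCA stood in 1 of 44 (COL10A1), against 6.57% of all windows. The GC box stood in 24 of 44 collagen windows, against 42.6% of all, and the CCAAT box in 12 of 44, against 32.0% of all. Within the 4 printed windows no matches of different motifs shared a base. The annotated starts of COL4A1 and COL4A2 were 127 bases apart, and those of COL4A5 and COL4A6 380 to 1416 bases, depending on the start used. These matches describe the letters of the windows and were not tested for binding.

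The 24 libraries held 20.7 to 45.4 M fragments by the width of the deposited confidence intervals. Of the genes named in the labels, YAP1 had a median of 6.17 FPKM in YAP/TAZ dKO cells, against 31.4 in WT, and WWTR1 10.5, against 26.7, so transcript remained in both cases. LATS1 had a median of 5.47 FPKM in LATS dKO cells, against 12.4 in WT, while LATS2 overlapped WT. RAP2A was lower in RAP2 tKO cells (log2 change -0.31, limma adjusted p = 0.00397), RAP2B was higher (0.26, adjusted p = 0.00084) and the log2 change of RAP2C was 0.17 (adjusted p = 0.238). A transcript that is still made can carry the edit, so these levels do not check the RAP2 and LATS2 labels. Of 6 markers of the line fixed for the check, VIM, KRT8, KRT18 and NEFL were expressed in every genotype, PAX2 reached 1 FPKM only in YAP/TAZ dKO cells and NEFM stayed below 0.1 FPKM. These markers differed between the lines: in YAP/TAZ dKO cells NEFL was higher than in WT (median 476.9 FPKM, against 16.2, log2 change 4.85) and KRT8 and KRT18 were lower (-2.50 and -1.80), while in LATS dKO cells KRT8 and KRT18 were higher (1.42 and 1.18). Their part in the collagen results was not tested. Replicate 3 of RAP2 tKO and replicate 1 of LATS dKO, both on 40 kPa, stood apart from their groups. Their deviation from the group mean followed the GC content of the genes, with rank correlations across genes of -0.64 and -0.62, against at most 0.35 in size in the other 6 groups.

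Transcripts of the 24 expressed collagen genes were rich in GC, with a median of 59% against 49.5% over all 15828 genes tested. Whether that skew touched collagen genes more than others was not tested. At a split of 58%, chosen after the values were seen, 13 of the 24 genes fell on the GC-rich side. Their median deviation on the log2(FPKM + 1) scale was -0.5 in the RAP2 tKO library and -0.38 in the LATS dKO library. For the 11 other genes it was 0.12 and 0.07. COL18A1 was the extreme, with 24, 24.2 and 6.1 FPKM in the 3 RAP2 tKO libraries on 40 kPa. COL6A1 had 21.4, 23.4 and 7.31 FPKM in the same libraries. All 8 groups share 1 estimate of the spread, so these 2 libraries also enter the standard errors of comparisons that do not contain them. Calls of collagen genes that were added without the 2 libraries are given with and without them.

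**Figure D1:**
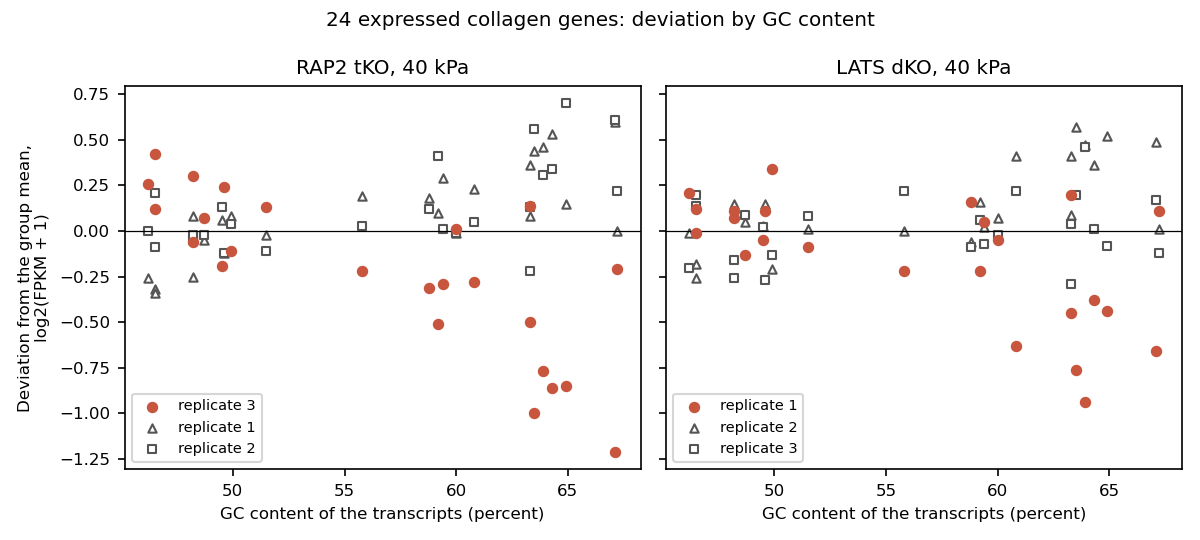
Deviation of each of the 24 expressed collagen genes from its group mean (log2(FPKM + 1), vertical axis) against the GC content of its transcripts (percent, horizontal axis) in the RAP2 tKO and LATS dKO libraries on 40 kPa. Filled points are the library that stands apart, open triangles and squares the other replicates; GC-rich genes lie low in the filled points, with a median of -0.5 in RAP2 tKO replicate 3 and -0.38 in LATS dKO replicate 1.

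Basement membrane collagens made up the largest class by summed FPKM in WT. COL4A2 was the highest collagen gene there, with a median of 30.5 FPKM over 6 libraries. COL6A1 (16.9 FPKM), COL4A1 (15.6) and COL18A1 (15.2) followed, and these 3 medians lay within the spread of the libraries. COL14A1 (11.1), COL4A5 (9.67), COL25A1 (9.54), COL26A1 (7.91) and COL6A2 (6.22) came next, neighbours overlapping throughout. COL1A1 had a median of 4.99 FPKM, COL13A1 3.76, COL4A6 3.51, COL9A3 2.92, COL27A1 2.43 and COL5A1 1.89. COL7A1 (1.47), COL24A1 (1.22) and COL9A2 (1.08) were just above 1 FPKM, and 18 genes reached 1 FPKM in at least 3 WT libraries. The other expressed genes had WT medians between 0.158 (COL3A1) and 0.799 (COL4A3). COL4A2 stood apart from the next gene and COL18A1 from COL14A1, and the libraries of the other neighbours down to COL9A2 overlapped.

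The 20 genes that were not expressed did not exceed 0.904 FPKM (COL9A1) in any library, while COL16A1, just inside the threshold, reached 1 FPKM in 5 libraries. They were COL1A2, COL2A1, COL5A3, COL11A1 and COL11A2 of the fibrillar class, COL4A4 of the basement membrane class, and COL6A3, COL6A5 and COL6A6 of the beaded filament class. All 3 short network genes (COL8A1, COL8A2 and COL10A1) were among them, as were the FACIT genes COL9A1, COL19A1, COL20A1, COL21A1 and COL22A1. COL15A1, COL17A1 and COL28A1 complete the list. COL1A2, the partner chain of COL1A1 in type I collagen, was listed at 0 in 21 of 24 libraries, with a highest value of 0.042 FPKM and a highest upper confidence bound of 0.318. COL6A3, the third chain of the common type VI collagen, reached at most 0.308 FPKM while COL6A1 and COL6A2 were expressed. COL22A1 was listed at 0 in every library.

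**Figure D2:**
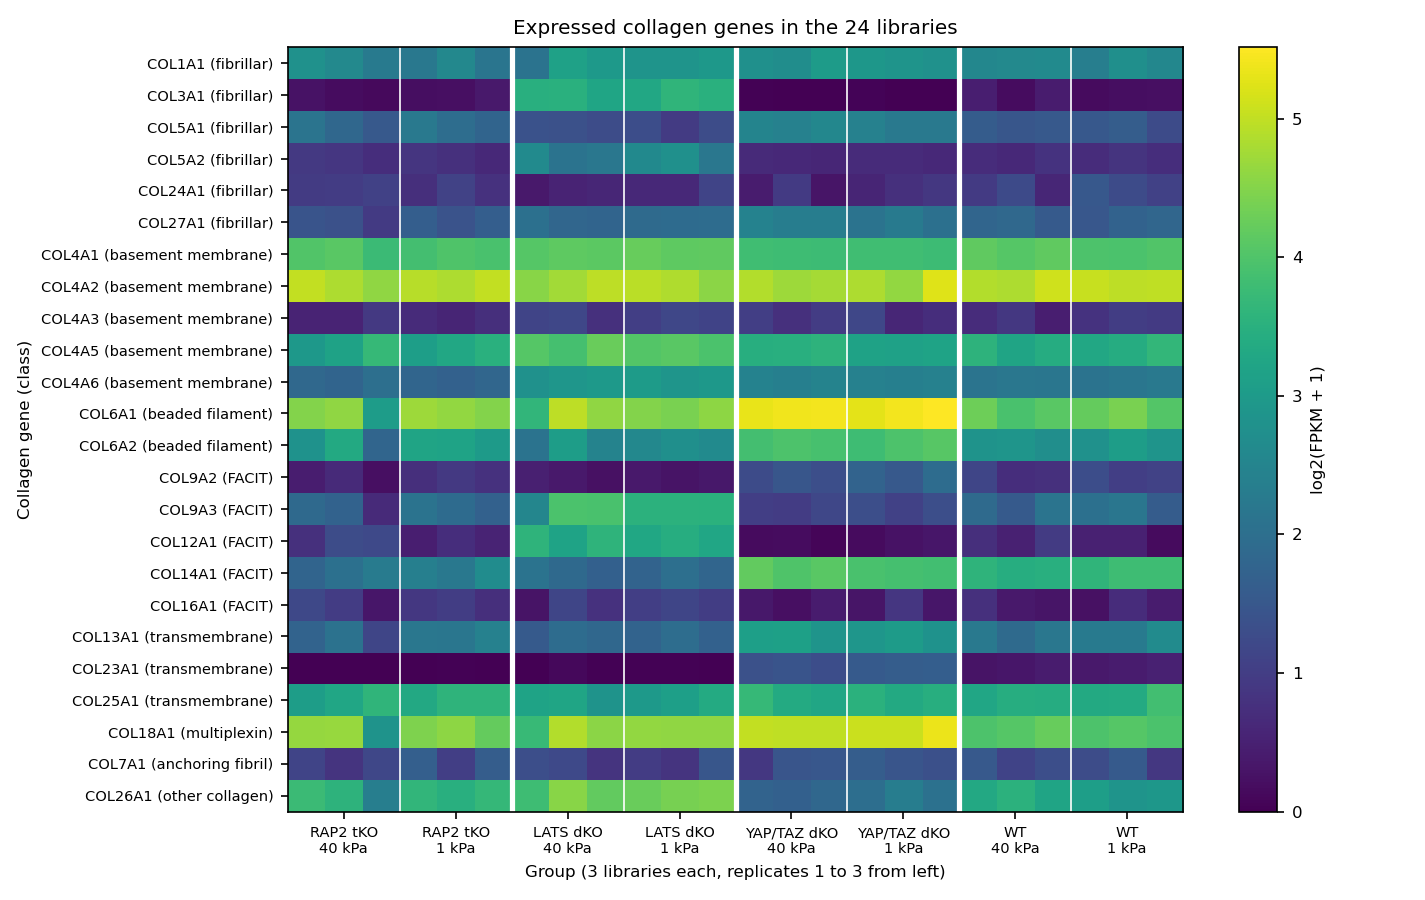
Level of the 24 expressed collagen genes (rows, with their class) in the 24 libraries (columns, 3 per group), as log2(FPKM + 1) by colour. COL3A1, COL12A1 and COL5A2 are brightest in the LATS dKO columns, and COL6A1 and COL18A1 are brightest in YAP/TAZ dKO, with medians of 41.2 and 31.8 FPKM.

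The sum over all 44 collagen genes had a lowest, median and highest value of 102.1, 155.8 and 156.6 FPKM in RAP2 tKO cells, 157.8, 202.6 and 220.5 in LATS dKO cells, 197.4, 199.6 and 220.8 in YAP/TAZ dKO cells, and 143.9, 153.9 and 157.2 in WT. The lowest values of RAP2 tKO and LATS dKO cells are the 2 libraries with the GC skew. The classes behind the higher sums were alike only in part. The fibrillar, FACIT, beaded filament and multiplexin sums had higher medians than WT in both lines, by different amounts. The basement membrane sum had a higher median only in LATS dKO cells, and the transmembrane sum only in YAP/TAZ dKO cells. In LATS dKO cells the fibrillar sum had a median of 26.4 FPKM, against 11.8 in WT, the FACIT sum 25.2, against 16.6, the multiplexin sum 23.3, against 15.2, and the sum of the genes in no other class, nearly all COL26A1, 19.0, against 7.95. In YAP/TAZ dKO cells the beaded filament sum had a median of 55.7 FPKM, against 22.8 in WT, and the multiplexin sum, nearly all COL18A1, 31.9, against 15.2. The basement membrane sum kept to 50.3 to 73.5 FPKM over all 24 libraries.

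**Figure D3:**
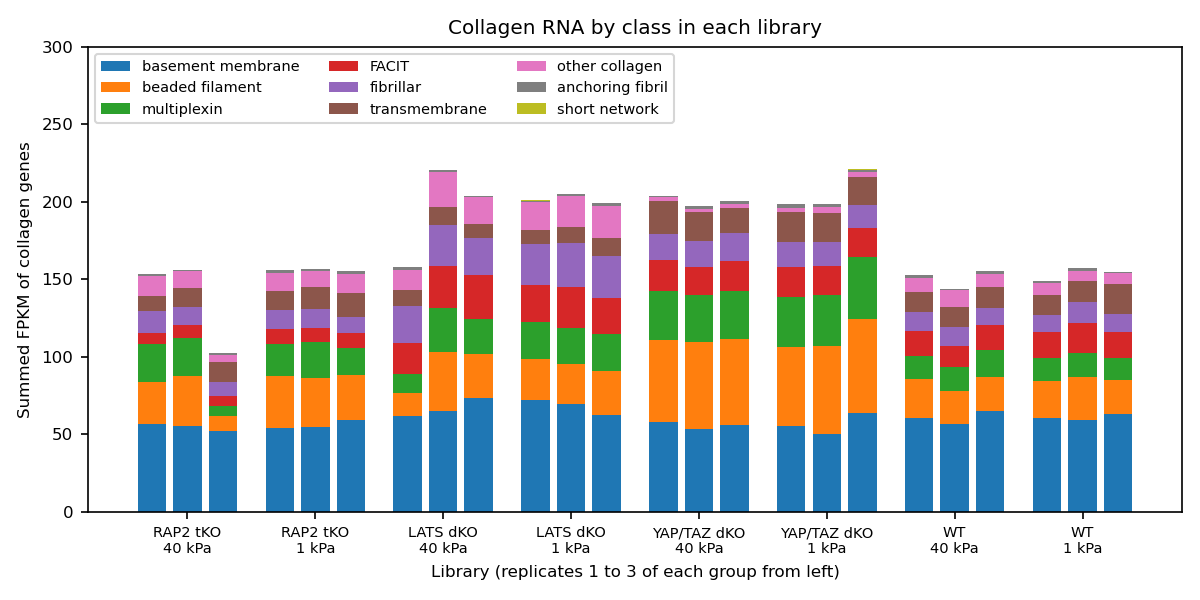
Summed FPKM of the 44 collagen genes in each library (bars, 3 per group), divided by collagen class (colours). Totals of YAP/TAZ dKO libraries (197.4 to 220.8 FPKM) lie above those of WT libraries (143.9 to 157.2 FPKM), and the short bars on 40 kPa are replicate 3 of RAP2 tKO and replicate 1 of LATS dKO.

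Differences were tested with limma on log2(FPKM + 1) over all 15828 genes, adjusted within each comparison by the Benjamini-Hochberg method and called at an adjusted p below 0.05. A log2 change on this scale understates the change of a gene at low FPKM. Each knockout line was compared with the same 6 WT libraries, as the mean over both stiffnesses, so the 3 comparisons are not independent of each other. In these bulk samples, fewer cells of a kind that makes a transcript and less of it per cell cannot be told apart. Of the 24 collagen genes, 6 were called in RAP2 tKO cells (1 higher, 5 lower), where 16% of all genes tested were called (7.4% higher, 8.57% lower). In LATS dKO cells 14 were called (8 higher, 6 lower), against 33.9% of all genes (16% higher, 17.8% lower). In YAP/TAZ dKO cells 16 were called (10 higher, 6 lower), against 50.6% of all genes (23.6% higher, 27% lower). The median log2 change of the 24 was -0.11, 0.21 and 0.08 in the RAP2 tKO, the LATS dKO and the YAP/TAZ dKO cells, with medians of 0, -0.01 and 0 over all genes.

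These counts and medians hold 5 genes that reached the threshold for expression only through 1 genotype, so the filter favoured a higher level there. The median changes of the 24 therefore cannot be set plainly against those of all genes. They were COL3A1, COL5A2, COL12A1 and COL16A1 through LATS dKO cells and COL23A1 through YAP/TAZ dKO cells. Among the other 19 genes the calls were 1 higher and 4 lower in RAP2 tKO cells, 4 higher and 5 lower in LATS dKO cells, and 9 higher and 4 lower in YAP/TAZ dKO cells. Without the 2 libraries with the GC skew, 11 of the 24 were called in RAP2 tKO cells (5 higher, 6 lower), where 27.6% of all genes were. The genes added were COL6A1, COL16A1, COL18A1 and COL26A1, all higher, and COL4A5, lower (-0.25, adjusted p = 0.0476). COL16A1 (0.51, adjusted p = 0.0063) and COL26A1 (0.47, adjusted p = 0.000507) had changes of 0.38 and 0.25 with all libraries. In the same fit 19 were called in LATS dKO cells, against 42.5% of all genes, with COL1A1, COL4A1, COL5A1, COL6A1 and COL18A1 added, and 17 in YAP/TAZ dKO cells, against 61.3%, with COL1A1 added.

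**Figure D4:**
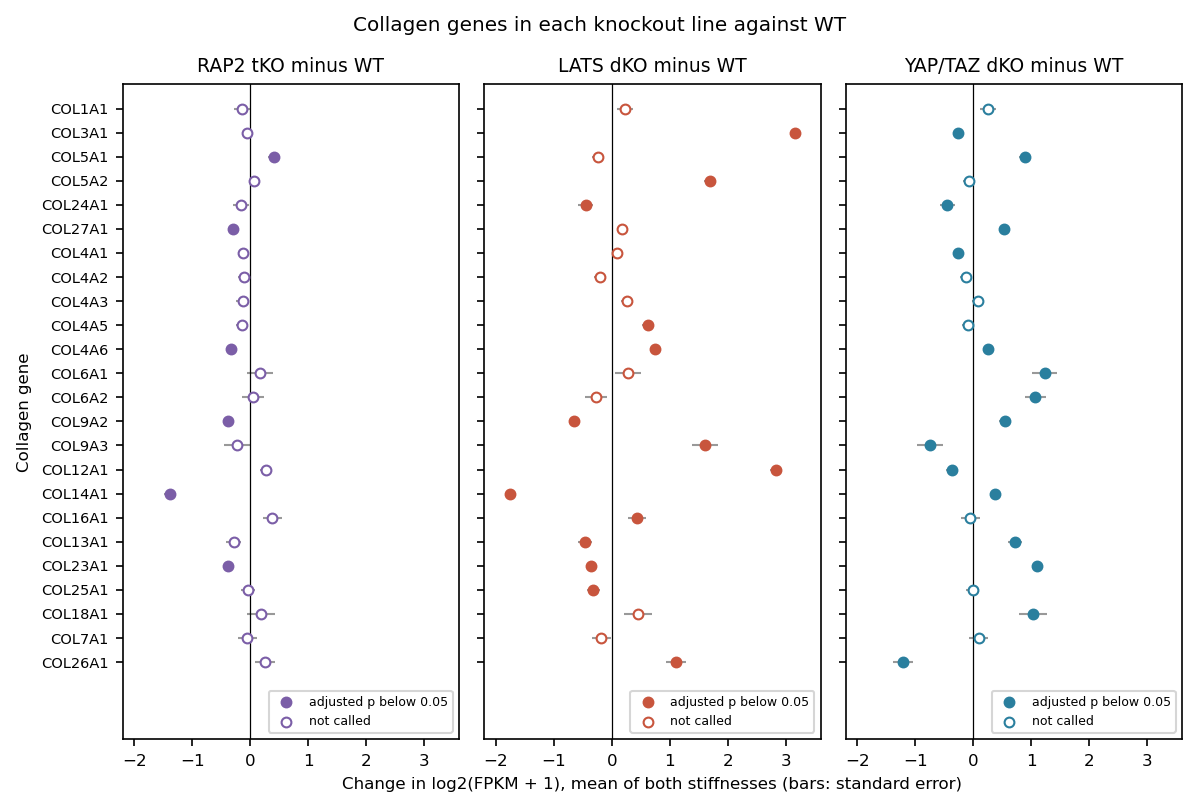
Change in log2(FPKM + 1) of the 24 expressed collagen genes (rows) in the RAP2 tKO, the LATS dKO and the YAP/TAZ dKO cells minus WT, as the mean over both stiffnesses, with standard errors as bars. Filled points were called at an adjusted p below 0.05 (6, 14 and 16 genes); COL3A1 lies farthest to the right in LATS dKO cells at 3.16.

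Of the 6 expressed fibrillar genes, COL3A1 and COL5A2 were called higher in LATS dKO cells and COL24A1 lower, while COL1A1, COL5A1 and COL27A1 were not called there. COL3A1 and COL5A2 are among the genes that reached the threshold for expression only through LATS dKO cells. COL3A1 (ENSG00000168542.12, chr2:189839046-189877472 on hg19) encodes the chain of type III collagen, a fibril of elastic tissues. In LATS dKO cells it had 10.1, 10.3 and 8.48 FPKM on 40 kPa and 8.91, 11.2 and 10.3 on 1 kPa. In WT cells it had 0.384, 0.132 and 0.339 FPKM on 40 kPa and 0.123, 0.147 and 0.169 on 1 kPa. All 6 LATS dKO libraries stood far above all WT libraries, with a ratio of mean FPKM of 45.8 and a log2 change of 3.16 ± 0.0671 (SE, adjusted p = 5.45e-17). It lay between 0 and 0.0304 FPKM in YAP/TAZ dKO cells, below every WT library, and the log2 change was -0.26 ± 0.0671 (adjusted p = 0.00335). The RAP2 tKO libraries, at 0.0979 to 0.296 FPKM, overlapped WT (log2 change -0.05, adjusted p = 0.713).

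COL5A2 (ENSG00000204262.11, chr2:189896622-190044605 on hg19) lies next to COL3A1 and encodes a chain of type V collagen, which starts and limits the width of fibrils. It had 5.28, 3.31 and 3.53 FPKM on 40 kPa and 5.16, 5.8 and 3.57 on 1 kPa in LATS dKO cells. In WT it had 0.615, 0.558 and 0.748 FPKM on 40 kPa and 0.62, 0.772 and 0.646 on 1 kPa. The LATS dKO and WT libraries did not overlap, and the log2 change was 1.69 ± 0.096 (adjusted p = 1.22e-10). Its level in YAP/TAZ dKO cells (0.506 to 0.611 FPKM, log2 change -0.08) and RAP2 tKO cells (0.56 to 0.89, log2 change 0.07) was not called as different from WT. The 10 other genes tested within 1 Mb of these 2 collagen genes had a median log2 change of 0.09 in LATS dKO cells, and 2 of the 10 were called higher.

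COL5A1, which encodes the other main chain of type V collagen, did not follow COL5A2. It had a lowest, median and highest value of 1.9, 2.74 and 3.72 FPKM in RAP2 tKO cells, 0.952, 1.45 and 1.64 in LATS dKO cells, 3.69, 4.38 and 4.91 in YAP/TAZ dKO cells, and 1.4, 1.89 and 2.1 in WT. It rose in YAP/TAZ dKO cells (log2 change 0.89 ± 0.0982, adjusted p = 4.07e-07) and in RAP2 tKO cells (0.41 ± 0.0982, adjusted p = 0.00717), and its change in LATS dKO cells was -0.24 (adjusted p = 0.0692). Without the 2 GC-skewed libraries the LATS dKO change was called lower (-0.25, adjusted p = 0.0403). COL27A1, a fibrillar collagen of cartilage, rose in YAP/TAZ dKO cells (median 3.9 FPKM, against 2.43 in WT, log2 change 0.53, adjusted p = 4.76e-05). It fell in RAP2 tKO cells (median 1.69 FPKM, against 2.43, log2 change -0.30, adjusted p = 0.0228), where 15 of the 18 other genes tested within 1 Mb were also called lower, with a median of -0.60. The RAP2 tKO call of COL27A1 was lost in 8 of 20 alternatives, with an adjusted p of up to 0.0988, among them leaving out 1 library (WT replicates 1 or 2 on 40 kPa, WT replicates 2 or 3 on 1 kPa, or RAP2 tKO replicate 2 on 1 kPa). COL24A1, a minor fibrillar chain, fell in LATS dKO and in YAP/TAZ dKO cells by 0.45 on the log2 scale, with medians of 0.526 and 0.587 FPKM, against 1.22 in WT.

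COL1A1, which encodes the main chain of type I collagen, had a median of 4.38 FPKM in RAP2 tKO cells, 6.47 in LATS dKO cells, 6.06 in YAP/TAZ dKO cells and 4.99 in WT. No comparison with WT called it, with log2 changes of -0.15, 0.23 and 0.26. Without the 2 GC-skewed libraries it was called higher in LATS dKO cells (0.39, adjusted p = 0.00159) and in YAP/TAZ dKO cells (0.26, adjusted p = 0.0104). The YAP/TAZ dKO change was 0.26 in both fits, with a standard error of 0.139 with all libraries and 0.0816 without the 2.

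FACIT collagens moved in both directions. COL12A1 (ENSG00000111799.20, chr6:75794042-75915767 on hg19), which encodes a collagen on the surface of type I fibrils, is the gene with the TEAD core printed above. It had 11.0, 8.21 and 11.1 FPKM on 40 kPa and 8.76, 9.9 and 8.62 on 1 kPa in LATS dKO cells. YAP/TAZ dKO libraries held 0.126, 0.139 and 0.0501 FPKM on 40 kPa and 0.115, 0.205 and 0.257 on 1 kPa. In WT it had 0.676, 0.425 and 0.945 FPKM on 40 kPa and 0.427, 0.429 and 0.124 on 1 kPa. LATS dKO libraries all lay above WT, with a ratio of mean FPKM of 19.0 and a log2 change of 2.83 ± 0.104 (adjusted p = 2.09e-13). COL12A1 reached the threshold for expression only through LATS dKO cells, so the filter favoured a higher level there. The YAP/TAZ dKO libraries lay low but overlapped WT (log2 change -0.37 ± 0.104, adjusted p = 0.00583). The 6 other genes tested within 1 Mb had a median change of 0.09 in LATS dKO cells, and 0 were called.

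COL14A1 (ENSG00000187955.11, chr8:121072019-121384275 on hg19), another collagen of fibril surfaces, had the opposite order. It had 2.42, 3.1 and 3.88 FPKM on 40 kPa and 4.21, 3.61 and 5.4 on 1 kPa in RAP2 tKO cells. In LATS dKO cells it had 3.28, 2.67 and 2.22 FPKM on 40 kPa and 2.4, 3.02 and 2.47 on 1 kPa. The YAP/TAZ dKO libraries held 17.2, 14.9 and 16.3 FPKM on 40 kPa and 14.3, 13.9 and 13.3 on 1 kPa. WT held 11.0, 9.8 and 10.1 FPKM on 40 kPa and 11.2, 13.0 and 13.0 on 1 kPa, apart from the libraries of each knockout line. COL14A1 fell in RAP2 tKO cells (log2 change -1.39 ± 0.0922, adjusted p = 6.91e-09) and in LATS dKO cells (-1.75 ± 0.0922, adjusted p = 4.18e-11), and rose in YAP/TAZ dKO cells (0.38 ± 0.0922, adjusted p = 0.00219). On the log2(FPKM + 1) scale it was the largest change of any expressed collagen gene in RAP2 tKO cells, while the ratio of mean FPKM to WT was 0.333 for COL14A1 and 0.0355 for COL23A1, which is at low level. The 11 other genes tested within 1 Mb had medians of 0, -0.09 and 0.09 in these 3 comparisons.

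COL9A3 and COL9A2 encode chains of type IX collagen, which covers cartilage fibrils, and they differed in direction. COL9A3 had 4.81, 14.5 and 14.3 FPKM on 40 kPa and 10.7, 10.7 and 10.5 on 1 kPa in LATS dKO cells, where the first value is the GC-skewed library. In WT it had 2.74, 1.94 and 3.34 FPKM on 40 kPa and 3.09, 3.49 and 2.06 on 1 kPa. It rose in LATS dKO cells (log2 change 1.61 ± 0.224, adjusted p = 1.67e-05; 1.84 without both skewed libraries) and fell in YAP/TAZ dKO cells (-0.75 ± 0.224, adjusted p = 0.00933, median 1.18 FPKM, against 2.92 in WT). Of the 40 other genes tested within 1 Mb, 23 were called lower and 2 higher in LATS dKO cells, with a median of -0.36. In YAP/TAZ dKO cells 16 of them were called lower and 2 higher, with a median of -0.19. Over all genes 17.8% and 27% were called lower in the LATS dKO and the YAP/TAZ dKO cells.

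COL9A2 had medians of 0.624 FPKM in RAP2 tKO, 0.288 in LATS dKO and 1.84 in YAP/TAZ dKO cells, against 1.08 in WT. It fell in LATS dKO cells (log2 change -0.65, adjusted p = 2.74e-05) and in RAP2 tKO cells (-0.38, adjusted p = 0.00909), and rose in YAP/TAZ dKO cells (0.54, adjusted p = 0.000107). With a correction for GC content the RAP2 tKO and YAP/TAZ dKO calls were lost (adjusted p = 0.18 and 0.0739). Within 1 Mb of COL9A2, 19 of 32 other genes were called lower in LATS dKO cells and 16 higher in YAP/TAZ dKO cells. COL16A1, a FACIT chain at low level, had medians of 0.909 FPKM in RAP2 tKO cells and 1.02 in LATS dKO cells, against 0.326 in WT. Its call in LATS dKO cells (log2 change 0.43, adjusted p = 0.0431) was lost in 12 of 20 alternatives, with adjusted p up to 0.117 when 1 library was left out.

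**Figure D5:**
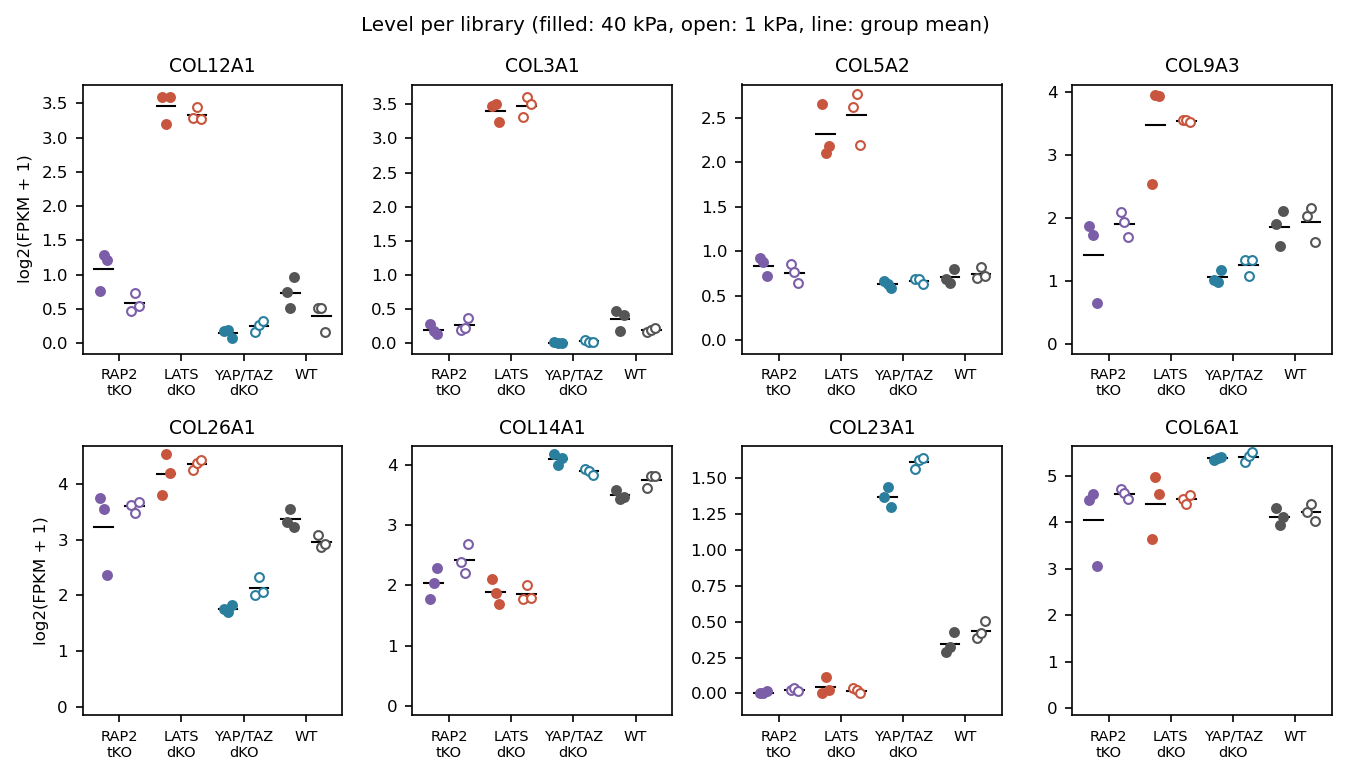
Level of 8 collagen genes in every library as log2(FPKM + 1), by genotype, with filled points for 40 kPa, open points for 1 kPa and a line at each group mean. COL12A1, COL3A1 and COL5A2 are high in LATS dKO cells, COL23A1 and COL6A1 in YAP/TAZ dKO cells, and COL14A1 is low in RAP2 tKO and LATS dKO cells.

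Among the transmembrane collagens, which stay anchored in the cell membrane, COL23A1 (ENSG00000050767.15, chr5:177664619-178017556 on hg19) differed in all 3 knockout lines. It had 1.58, 1.71 and 1.46 FPKM on 40 kPa and 1.96, 2.08 and 2.12 on 1 kPa in YAP/TAZ dKO cells. In WT it had 0.222, 0.252 and 0.344 FPKM on 40 kPa and 0.306, 0.338 and 0.421 on 1 kPa. The groups did not overlap, with a ratio of mean FPKM of 5.8 and a log2 change of 1.10 ± 0.0524 (adjusted p = 4.41e-12). COL23A1 reached the threshold for expression only through YAP/TAZ dKO cells, so the filter favoured a higher level there. RAP2 tKO libraries held 0 to 0.026 FPKM and LATS dKO libraries 0 to 0.0813, all below WT, with log2 changes of -0.38 (adjusted p = 6.22e-05) and -0.36 (adjusted p = 2.91e-05). Within 1 Mb, 17 of the 35 other genes tested were called higher in YAP/TAZ dKO cells, with a median of 0.24.

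COL13A1, a transmembrane collagen of cell contacts and of the neuromuscular junction, had medians of 3.35 FPKM in RAP2 tKO cells, 2.5 in LATS dKO cells, 6.8 in YAP/TAZ dKO cells and 3.76 in WT. It rose in YAP/TAZ dKO cells (log2 change 0.72 ± 0.125, adjusted p = 9.04e-05), without overlap with WT, and fell in LATS dKO cells (-0.46 ± 0.125, adjusted p = 0.0083), with overlap. COL25A1, a transmembrane collagen of neurons, had medians between 7.92 FPKM (LATS dKO) and 9.99 (RAP2 tKO), against 9.54 in WT. The call of its lower level in LATS dKO cells (log2 change -0.32, adjusted p = 0.0347) was lost in 8 of 21 alternatives, with an adjusted p of up to 0.103 when 1 library was left out.

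The 2 chains of type VI collagen that were expressed rose together in YAP/TAZ dKO cells, as did COL18A1, whose protein yields the fragment endostatin. COL6A1 (ENSG00000142156.14, chr21:47401651-47424964 on hg19) had 39.3, 40.9 and 41.6 FPKM on 40 kPa and 38.2, 42.0 and 44.8 on 1 kPa in YAP/TAZ dKO cells. In WT it had 18.7, 14.3 and 16.3 FPKM on 40 kPa and 17.6, 20.1 and 15.4 on 1 kPa. The log2 change was 1.23 ± 0.222 (adjusted p = 0.000134), and the groups did not overlap. COL6A2 had a lowest, median and highest value of 13.0, 14.3 and 15.9 FPKM in YAP/TAZ dKO cells and 5.61, 6.22 and 7.46 in WT (log2 change 1.07 ± 0.187, adjusted p = 9.86e-05). COL18A1 had 30.6, 31.8 and 40.0 FPKM in YAP/TAZ dKO cells and 14.6, 15.2 and 17.8 in WT (log2 change 1.03 ± 0.24, adjusted p = 0.00142). Without the 2 GC-skewed libraries, which belong to other groups, the log2 changes were the same. The standard errors were then 0.0776 (COL6A1), 0.101 (COL6A2) and 0.0693 (COL18A1). All 3 genes lie on chromosome 21, where the other genes tested within 1 Mb had medians of 0.15 (COL18A1, 27 genes), 0.03 (COL6A1, 19) and -0.07 (COL6A2, 18) in YAP/TAZ dKO cells.

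In LATS dKO and RAP2 tKO cells the 3 genes had wide ranges, with the GC-skewed library the lowest of each line. COL6A1 had 11.4, 30.2 and 23.2 FPKM in LATS dKO cells on 40 kPa, and COL18A1 12.2, 28.4 and 22.6. Neither was called in the comparison with all libraries (log2 changes 0.28 and 0.45, adjusted p = 0.367 and 0.162). Without both skewed libraries, COL6A1 and COL18A1 were called higher in LATS dKO cells (0.47 and 0.62, adjusted p = 0.000204 and 3.65e-06) and in RAP2 tKO cells (0.41 and 0.49, adjusted p = 0.00141 and 0.000125). Genes within 1 Mb of them had medians of 0.38 and 0.37 in LATS dKO cells, with 13 of 19 and 16 of 27 called higher. The ratio of COL6A1 to COL6A2 had a median of 4.24 in LATS dKO cells (3.48 to 5.11), 2.88 in YAP/TAZ dKO cells (2.78 to 2.98) and 2.80 in WT (2.24 to 3.03).

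Of the basement membrane collagens, COL4A1, COL4A5 and COL4A6 were called in at least 1 knockout line. COL4A1 and COL4A2, which together form the common type IV network and have starts 127 bases apart, had medians of 13.0 and 26.9 FPKM in YAP/TAZ dKO cells, against 15.6 and 30.5 in WT. COL4A1 fell in YAP/TAZ dKO cells (log2 change -0.26 ± 0.0453, adjusted p = 0.000101), with all 6 libraries (12.7 to 13.1 FPKM) below all WT libraries (14.4 to 17.1 FPKM). Of the 11 other genes tested within 1 Mb, 6 were called lower there and 0 higher, with a median of -0.20. Over all genes 27% were called lower in that comparison. The change of COL4A1 in LATS dKO cells was 0.09 (adjusted p = 0.118), and without the 2 GC-skewed libraries it was called higher (0.11, adjusted p = 0.0094). COL4A2 was not called in any comparison, with changes of -0.11, -0.20 and -0.13 in the RAP2 tKO, the LATS dKO and the YAP/TAZ dKO cells. The ratio of COL4A2 to COL4A1 had medians of 1.94, 1.61 and 2.07 in the 3 lines and 2.0 in WT, and the ranges overlapped. COL4A3, a chain of the kidney glomerulus, had medians of 0.549 to 1.19 FPKM in the 4 genotypes and was not called.

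COL4A5 and COL4A6, the head-to-head pair on the X chromosome, encode chains of the specialised basement membranes of kidney and smooth muscle. COL4A6 (ENSG00000197565.15, chrX:107398837-107682727 on hg19) had 5.97, 6.5 and 6.83 FPKM on 40 kPa and 7.12, 6.33 and 6.67 on 1 kPa in LATS dKO cells. In RAP2 tKO cells it had 2.63, 2.41 and 3.02 FPKM on 40 kPa and 2.47, 2.3 and 2.51 on 1 kPa. In WT it had 3.38, 3.56 and 3.51 FPKM on 40 kPa and 3.28, 3.51 and 3.71 on 1 kPa, so that both knockout lines stood apart from it. COL4A6 rose in LATS dKO cells (log2 change 0.75 ± 0.0462, adjusted p = 3.57e-10) and in YAP/TAZ dKO cells (0.26 ± 0.0462, adjusted p = 0.00014, median 4.37 FPKM), and fell in RAP2 tKO cells (-0.34 ± 0.0462, adjusted p = 4.68e-05). COL4A5 had a median of 15.5 FPKM in LATS dKO cells, against 9.67 in WT, without overlap (log2 change 0.62 ± 0.107, adjusted p = 0.000176), and was not called in the other 2 lines. In LATS dKO cells the 8 other genes tested within 1 Mb of COL4A5 had a median change of 0.62, and 6 of them were called higher, a change of the same size as that of COL4A5.

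COL26A1 (ENSG00000160963.13, chr7:101006101-101202304 on hg19), a secreted collagen with short triple helical parts, was higher in LATS dKO and lower in YAP/TAZ dKO cells. It had 12.9, 22.3 and 17.3 FPKM on 40 kPa and 18, 19.9 and 20.5 on 1 kPa in LATS dKO cells. YAP/TAZ dKO libraries held 2.38, 2.24 and 2.57 FPKM on 40 kPa and 3.0, 4.05 and 3.16 on 1 kPa. WT held 9.04, 10.7 and 8.35 FPKM on 40 kPa and 7.47, 6.27 and 6.62 on 1 kPa, between both lines and apart from each. The log2 change was 1.10 ± 0.174 in LATS dKO cells (adjusted p = 6.74e-05) and -1.22 ± 0.174 in YAP/TAZ dKO cells (adjusted p = 1.06e-05). In YAP/TAZ dKO cells 23 of the 37 other genes tested within 1 Mb were called lower, with a median of -0.41. COL7A1, the collagen of the fibrils that anchor the epidermis, had medians of 1.15 to 1.74 FPKM in the knockout lines, against 1.47 in WT, and was not called.

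The stiffness of the matrix changed no collagen gene past the threshold. Comparing 40 with 1 kPa, 0 of the 24 were called in RAP2 tKO, LATS dKO, YAP/TAZ dKO or WT cells by limma, where 3.87%, 0.708%, 0.347% and 0.986% of all genes were called. At an unadjusted p under 0.05 there were 5, 0, 2 and 2 collagen genes. The log2 changes lay between -0.59 (COL13A1) and 0.51 (COL12A1) in RAP2 tKO cells, between -0.32 and 0.16 in LATS dKO cells, between -0.40 and 0.31 in YAP/TAZ dKO cells, and between -0.35 and 0.41 in WT. The nearest to the threshold were COL12A1 and COL13A1 in RAP2 tKO cells, with adjusted p of 0.0593 and 0.0671. COL12A1 averaged 1.15 ± 0.398 FPKM on 40 kPa and 0.5 ± 0.14 on 1 kPa in RAP2 tKO cells (SD, n = 3 each).

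The counts differed without the 2 GC-skewed libraries. Leaving them out, COL26A1 and COL4A1 were called higher on 40 kPa in WT cells, where 6.36% of all genes were called. COL26A1 averaged 9.35 ± 1.2 FPKM on 40 kPa and 6.79 ± 0.615 on 1 kPa (SD, n = 3 each; log2 change 0.41, adjusted p = 0.0381). COL4A1 averaged 16.6 ± 0.685 FPKM on 40 kPa and 14.8 ± 0.44 on 1 kPa (log2 change 0.15, adjusted p = 0.0347). The WT libraries and both log2 changes were the same in the fit of all libraries, and only the estimate of the spread, shared by all 8 groups, differed. The standard error was 0.246 with and 0.11 without the 2 libraries for COL26A1, and 0.0641 and 0.0406 for COL4A1. In RAP2 tKO cells COL14A1 was called lower on 40 kPa (-0.52, adjusted p = 0.0213), where 5.02% of all genes were. A difference between a knockout line and WT in the response to stiffness, tested as an interaction, was called for 0 of the 24 genes in the RAP2 tKO, the LATS dKO and the YAP/TAZ dKO cells by limma, with 0.0505%, 0.0632% and 0.392% of all genes called and 2, 1 and 3 collagen genes at an unadjusted p under 0.05. Without the 2 libraries, COL26A1 was called for YAP/TAZ dKO against WT (difference in log2 change -0.78, adjusted p = 0.0143), where 2.61% of all genes were, and was lower on 40 kPa there (2.4 ± 0.163 FPKM on 40 kPa and 3.4 ± 0.564 on 1 kPa) and higher in WT. This difference was also -0.78 with all libraries, with a standard error of 0.348, against 0.155 without the 2.

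Genes that act on collagens were listed by role. The list of enzymes and chaperones for folding, modification and export of collagen held 24 genes, of which 23 were tested. In YAP/TAZ dKO cells 8 rose and 7 fell, where 50.6% of all genes were called. PLOD2, a lysyl hydroxylase that sets the kind of crosslink, fell by 1.36 on the log2 scale (adjusted p = 5.63e-11), PLOD3 by 1.14 (adjusted p = 5.63e-10) and SERPINH1, the collagen chaperone HSP47, by 0.74 (adjusted p = 4.68e-09). P4HB, a subunit of prolyl 4-hydroxylase, rose by 0.49 (adjusted p = 3.45e-10). In LATS dKO cells 5 rose and 3 fell, a share near the 33.9% called over all genes, the smallest p-values being those of COLGALT2 (0.51) and CRTAP (0.41), both higher, and PLOD1 (-0.24). In RAP2 tKO cells 3 rose and 5 fell, where 16% of all genes were called, led by TMEM38B (-0.58, adjusted p = 1.15e-07) and P4HA2 (-0.34). On 40 kPa in WT cells P4HB (0.24, adjusted p = 0.0135) and PPIB (0.21, adjusted p = 0.0107) were called higher.

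Of 14 genes for propeptide removal and crosslinking, 10 were tested. PXDN, the peroxidase that crosslinks type IV collagen, rose in RAP2 tKO cells (log2 change 0.86, adjusted p = 1.21e-05) and in YAP/TAZ dKO cells (1.49, adjusted p = 8.58e-10). The lysyl oxidases LOXL4 (0.62), LOX (0.50) and LOXL1 (0.64) were the 3 genes called higher in LATS dKO cells, and 0 were called lower, a share near the 33.9% called over all genes. In RAP2 tKO cells 3 were higher (PXDN, LOXL1 and PCOLCE) and 0 lower, where 16% of all genes were called. In YAP/TAZ dKO cells 4 were higher and 3 lower, where 50.6% of all genes were called, among them LOXL4 (-1.08, adjusted p = 1.18e-10) and the procollagen C-proteinase enhancer PCOLCE2 (-0.86), while the procollagen N-proteinase ADAMTS2 was higher (0.89).

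Of 14 genes for collagen breakdown and its inhibitors, 9 were tested, with 0 higher and 3 lower in RAP2 tKO cells, 2 and 5 in LATS dKO cells, and 3 and 3 in YAP/TAZ dKO cells. Over all genes 16%, 33.9% and 50.6% were called in these comparisons. MMP16, a membrane-bound metalloproteinase, rose in LATS dKO cells (log2 change 1.37, adjusted p = 9.07e-11) and in YAP/TAZ dKO cells (1.01, adjusted p = 2.69e-09). MMP2, a gelatinase, was called lower in each of the 3 lines (RAP2 tKO -0.46, LATS dKO -0.78, YAP/TAZ dKO -0.94). On 40 kPa MMP14, which activates MMP2, was called lower in RAP2 tKO (-0.38, adjusted p = 0.0443) and WT cells (-0.44, adjusted p = 0.0487). Of 10 collagen receptors, 5 were tested, with 1 higher and 0 lower in RAP2 tKO cells, 2 and 0 in LATS dKO cells, and 1 and 3 in YAP/TAZ dKO cells. DDR2, a receptor tyrosine kinase for fibrillar collagen, rose in each line (RAP2 tKO 0.31, LATS dKO 1.13 with adjusted p = 1.88e-09, YAP/TAZ dKO 0.36). ITGA1, a collagen-binding integrin chain, rose in LATS dKO cells (1.16) and fell in YAP/TAZ dKO cells (-0.99). The integrin chains ITGB1 and ITGA2 were also called lower in YAP/TAZ dKO cells. Their medians there were 112.1 and 1.39 FPKM, against 145.3 and 2.07 in WT.

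COL3A1, COL5A2 and COL12A1 are also known from fibroblasts, so markers of that cell type were read beside them. Of 8 fibroblast markers, LUM was the only one to reach 1 FPKM. LUM, which encodes lumican, a proteoglycan on collagen fibrils, had a lowest, median and highest value of 7.3, 8.28 and 9.02 FPKM in LATS dKO cells and 0.408, 0.798 and 1.48 in WT (log2 change 2.35, adjusted p = 6.3e-12). It was also higher in RAP2 tKO cells (1.13 to 2.48 FPKM, log2 change 0.60, adjusted p = 0.00086) and lower in YAP/TAZ dKO cells (0 to 0.05 FPKM, log2 change -0.82, adjusted p = 4.91e-06). Its part in the collagen results was not tested. DCN was listed at 0 in every library, and the other 7 markers summed to 0.323 to 0.71 FPKM in LATS dKO cells and 0.336 to 0.661 in WT. Endothelial markers (3 measured) stayed below 1 FPKM in every library, of 4 leukocyte markers only CD68 reached it, and of 4 chondrocyte markers only MATN3, in LATS dKO cells.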

How the data were processed

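TRIzol was used for RNA and the TruSeq Stranded mRNA kit for libraries, per the labels' protocols. Per the submitters' processing notes, STAR 2.4.2a, Cufflinks 2.2.1 and the genome build hg19 were used. The authors deposited 1 table of gene FPKM values with confidence intervals and coordinates per library. Annotation release and strand setting are not named, so overlapping, antisense and near-identical genes may share fragments. Each table held 60350 entries under 58266 symbols, of which 338 with several entries were summed and 92 were left out for the status of an entry. Depth was estimated from the width of the confidence intervals.

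Genes reaching 1 FPKM in 3 or more libraries (15828) were tested on log2(FPKM + 1) with limma 3.58.1 in R 4.3.3, fitting all 24 libraries together with a mean for each of the 8 groups (16 residual degrees of freedom), a trend of spread on level, and two-sided moderated tests. The 10 contrasts were stiffness in each genotype, each knockout line against WT over both stiffnesses, and the interactions. Benjamini-Hochberg adjustment ran over all genes of a contrast, and all adjusted p-values are limma's. The step was tested on simulated data. GC content came from GENCODE 29 transcripts, which covered 98.1% of the genes tested, and promoters from RefSeq. Alternatives were another pseudocount, filters, scaling, GC correction, a replicate block, only the compared groups, and leaving out libraries.

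All expressed collagen genes are named, those called with their value in every library in the text or the plot of levels, and up to 4 called members of each list per contrast by the smallest adjusted p. The members and lists were chosen with earlier results of these data known.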

Additional observations from a re-analysis of the deposited data

How the results depend on the processing

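Of the 36 calls of a collagen gene in a knockout line against WT, 31 kept their side of the threshold in every alternative that tested the gene and 0 reversed. The 5 lost in some were COL16A1 and COL25A1 in LATS dKO cells, COL27A1 in RAP2 tKO cells, and COL9A2 in RAP2 tKO and YAP/TAZ dKO cells. With a mean FPKM of at least 5, which tests fewer genes, 1, 4 and 6 collagen genes were called in the RAP2 tKO, the LATS dKO and the YAP/TAZ dKO cells. Over the 10466 genes tested under that filter, 1846, 3892 and 5704 were called. Without both GC-skewed libraries, 11 were called in RAP2 tKO cells against WT, 2 for stiffness in WT, 1 for stiffness in RAP2 tKO cells and 1 for the YAP/TAZ dKO interaction. The interaction also gave 1 (COL26A1) when only the compared groups were fitted, where 273 of all 15828 genes were called. Stiffness called 1 gene in YAP/TAZ dKO cells without a filter (COL23A1, lower), where 57 of 36358 genes were called. GC correction gave 1 (COL26A1) for stiffness in WT and 3 (COL1A1, COL12A1 and COL14A1) in RAP2 tKO cells, and with the replicate block added 1 and 1. Over all 15828 genes GC correction called 532 in WT and 1055 in RAP2 tKO cells, and with the block 470 and 972. Leaving out each library in turn gave 0 to 2 for stiffness in RAP2 tKO cells: COL12A1 without 40 kPa replicate 1, COL13A1 and COL6A2 without replicate 2, and COL14A1 without replicate 3. Over all genes these fits called 1141, 896 and 340, in that order. The WT and YAP/TAZ dKO groups hold neither skewed library. Without both skewed libraries, comparisons among these groups kept their log2 changes, and the shared estimate of the spread changed. The cause of the other shifts was not tested. Over all genes, stiffness called 612, 112, 55 and 156 in RAP2 tKO, LATS dKO, YAP/TAZ dKO and WT cells, 795, 472, 391 and 1006 without both skewed libraries, and 8, 2, 56 and 45 when only the compared groups were fitted. For RAP2 tKO against WT the count was 2528, and 4362 without both skewed libraries.

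For same-numbered replicates, 84 correlations of their deviations lay between -0.25 and 0.15, and 3 were over 0.1. Deviations from a mean of 3 libraries, some with a GC skew, cannot decide whether the numbers pair samples. With the replicate block the collagen counts were 6 in RAP2 tKO, 15 in LATS dKO (COL5A1 added, lower) and 16 in YAP/TAZ dKO cells against WT and 0 in the other 7 contrasts, and it changed no other collagen call. Over all 15828 genes the block gave 2420, 5276 and 7953 calls in these lines against WT.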
